A study of Mus musculus with 11 samples.

Results

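Regulators of G-protein signalling (RGS proteins) were examined in mouse thymocytes, which are T cells in development. The group was a list of 7 *Rgs* genes, *Rgs1*, *Rgs2*, *Rgs3*, *Rgs10*, *Rgs14*, *Rgs16* and *Rgs19*, matched by their GENCODE names on GRCm38 to 7 of the 54418 genes in the count table. The genes were chosen by name with their measured levels and fold changes in these 11 mice known, so the levels and fold changes of its genes are given as a description and no p-value is given for any of them. RNA was sequenced from 4 wild-type (wt) mice, 4 Zmat3-/- mice and 3 Puma-/-p21-/-Zmat3-/- (TKO) mice, all age-matched and 8 to 12 weeks old, on a C57BL/6-WEHI background. No tissue-specific driver of the knockouts is named in the labels or methods, and both mutant genotypes lack *Zmat3*. No treatment of the cells or sort into subsets is given for these libraries, and each sample was 1 mouse.

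A receptor coupled to a heterotrimeric G protein loads the G alpha subunit with GTP and frees it from the G beta-gamma pair. RGS proteins bind the loaded alpha subunit and speed up its GTP hydrolysis, which ends the signal, so they set how long and how strongly a cell responds to chemokines, lipids and hormones. In lymphocytes, several of them are induced by activation and dampen the chemokine receptors that guide migration. The listed genes come from 3 branches of the family. *Rgs1*, *Rgs2*, *Rgs3* and *Rgs16* belong to the R4 branch, *Rgs10* and *Rgs14* to the R12 branch, and *Rgs19* to the RZ branch.

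*Rgs1* and *Rgs2* lie on the same strand of chromosome 1 in GRCm38, with *Rgs13* between them. *Rgs2* (ENSMUSG00000026360.9) spans bases 143999338 to 144004161 on the minus strand, and *Rgs1* (ENSMUSG00000026358.13) spans bases 144242296 to 144249242 on the minus strand. *Rgs16* (ENSMUSG00000026475.7) is on the plus strand of the same chromosome from 153740349 to 153745468. Its exons overlap those of *Gm28513* on the opposite strand by 236 bases, and since the library kit does not mark strand, reads in that stretch cannot be assigned to either gene.

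The promoter table of RefSeq (GRCm38.p6) held 8 windows for 5 of the 7 genes and none for *Rgs1* and *Rgs14*. The 250 bases upstream of the RefSeq start of *Rgs2* and of *Rgs16* are shown because these R4 genes lie on the same chromosome and differed in how they compared with wt. Capitals mark the core of the cyclic AMP response element (CRE), TGACG or its reverse complement CGTCA. The *Rgs2* window is chr1:144004150-144004399 on the minus strand and the *Rgs16* window is chr1:153740103-153740352 on the plus strand, both printed 5′ to 3′ in the direction of transcription. The start is that of RefSeq, which lies a few bases inside the GENCODE gene, so the last bases of both windows fall within the gene spans given above.
Rgs2: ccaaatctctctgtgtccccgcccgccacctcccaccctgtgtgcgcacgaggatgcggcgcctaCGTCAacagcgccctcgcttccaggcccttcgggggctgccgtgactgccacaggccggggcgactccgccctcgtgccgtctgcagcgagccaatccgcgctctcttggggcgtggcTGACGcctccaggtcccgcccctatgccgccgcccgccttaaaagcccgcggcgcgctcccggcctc
Rgs16: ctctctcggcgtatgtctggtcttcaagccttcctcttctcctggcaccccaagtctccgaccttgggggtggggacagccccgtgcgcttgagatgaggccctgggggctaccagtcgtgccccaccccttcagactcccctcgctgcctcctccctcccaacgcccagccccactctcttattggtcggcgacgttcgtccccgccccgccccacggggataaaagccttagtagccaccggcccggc
The *Rgs2* window held 2 CRE cores, at bases 185 to 181 and 67 to 63 before the start, and the *Rgs16* window held none. These 2 genes were chosen with their fold changes known, so nothing is read from this difference. Both strands were searched for the CRE core, the full CRE TGACGTCA, which contains it, the AP-1 site TGANTCA, the CArG box bound by serum response factor, and TATAAA. Of 32851 promoter windows of the same length, 17.8% held a CRE core, 1.55% a full CRE, 6.75% an AP-1 site, 1.47% a CArG box and 12.4% TATAAA. Apart from the 2 CRE cores, only 2 matches were found in the 8 windows, 1 TATAAA in each of the 2 *Rgs3* windows. The *Rgs2* window was 72.4% G and C and the *Rgs16* window 66.4%.

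The libraries held 17669715 to 80207003 counts. Levels are given as CPM, each count relative to the library total after scaling by TMM factors over the 11 mice. *Zmat3* was counted at 10.1, 12.3, 27.4 and 27.9 CPM in wt mice 1 to 4, 5.41 to 6.98 CPM in Zmat3-/- and 7.44 to 8.27 CPM in TKO mice, so its RNA was below every wt mouse in the mutants but not absent, and wt mice 3 and 4 lay above wt mice 1 and 2, the reverse of *Rgs1* and *Rgs2*. *Puma* (*Bbc3*) was at 17.2 to 20.1 CPM in wt, 15.5 to 20.2 CPM in Zmat3-/- and 11.8 to 15.99 CPM in TKO mice, and *p21* (*Cdkn1a*) at 3.61 to 10.4, 4.85 to 8.78 and 2.24 to 3.62 CPM. Over Zmat3-/- mice, the TKO mice overlapped for *Puma*, at 0.770-fold, and lay below for *p21*, at 0.461-fold, with edgeR adjusted p-values of 0.983 and 0.384. The 12 thymocyte markers examined, such as *Cd3e*, *Cd4*, *Cd8a* and *Rag1*, summed to 12289 to 14940 CPM over the 11 mice, and none was at 0. The wt mice fell into pairs, 1 with 2 and 3 with 4. Across genes, log2 CPM correlated at 0.982 between wt mice 1 and 2 and at 0.981 between wt mice 3 and 4 but at no more than 0.924 between the pairs, against 0.984 to 0.990 among Zmat3-/- mice. Between the wt pairs, 47.5% of 13522 genes differed by more than 1.5-fold, and the same split of the Zmat3-/- mice gave 5.42%. The pairs also differed in *Xist*, the RNA that coats the inactive X chromosome. It was at 514 to 1526 CPM in the first 2 mice of the wt and Zmat3-/- genotypes and the first TKO mouse, and 6 mice had 0.727 to 2.65 CPM. For the 7 listed genes and *Cxcr4*, the comparisons with wt are therefore also given against each wt pair.

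*Rgs2* and *Rgs1* were higher in every mutant mouse than in any wt mouse, and the other 5 listed genes overlapped between wt and mutants. *Rgs2*, which acts mainly on G alpha q, was at 79.0, 81.1, 34.6 and 40.0 CPM in wt mice 1 to 4. It was at 140.1, 137, 151 and 183 CPM in Zmat3-/- mice 1 to 4. It was at 175, 192 and 135 CPM in TKO mice 1 to 3. The lowest mutant mouse, TKO mouse 3, lay above the highest wt mouse, and the mutant genotypes overlapped each other. The means were 58.7 ± 24.8 CPM in wt (SD, n = 4), 153 ± 20.8 CPM in Zmat3-/- (SD, n = 4) and 168 ± 29.0 CPM in TKO mice (SD, n = 3). These were fold changes of 2.62 for Zmat3-/- and 2.86 for TKO over wt in edgeR's fit. As log2 fold change (log2FC) they were 1.39 (standard error 0.289, 95% interval 0.73 to 2.05) and 1.51 (standard error 0.331, 95% interval 0.75 to 2.28).

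*Rgs1*, known in lymphocytes for dampening responses to chemokines, was among the least abundant listed genes. It was at 8.54, 9.51, 2.89 and 4.70 CPM in wt mice 1 to 4, from 68 to 382 counts. It was at 17.4, 17.3, 15.3 and 14.8 CPM in Zmat3-/- mice 1 to 4. It was at 14.8, 24.4 and 16.7 CPM in TKO mice 1 to 3. All 7 mutant mice lay above wt mouse 2, the highest wt mouse, and TKO mouse 2 stood above the rest. The means were 6.41 ± 3.14 CPM in wt (SD, n = 4), 16.2 ± 1.35 CPM in Zmat3-/- (SD, n = 4) and 18.6 ± 5.09 CPM in TKO mice (SD, n = 3). The log2FC over wt was 1.34 for Zmat3-/- (standard error 0.335, 95% interval 0.58 to 2.11) and 1.53 for TKO mice (standard error 0.408, 95% interval 0.59 to 2.48). The comparisons of Zmat3-/- and of TKO with wt share the 4 wt mice, so these pairs of values are not independent of each other.

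**Figure D1:**
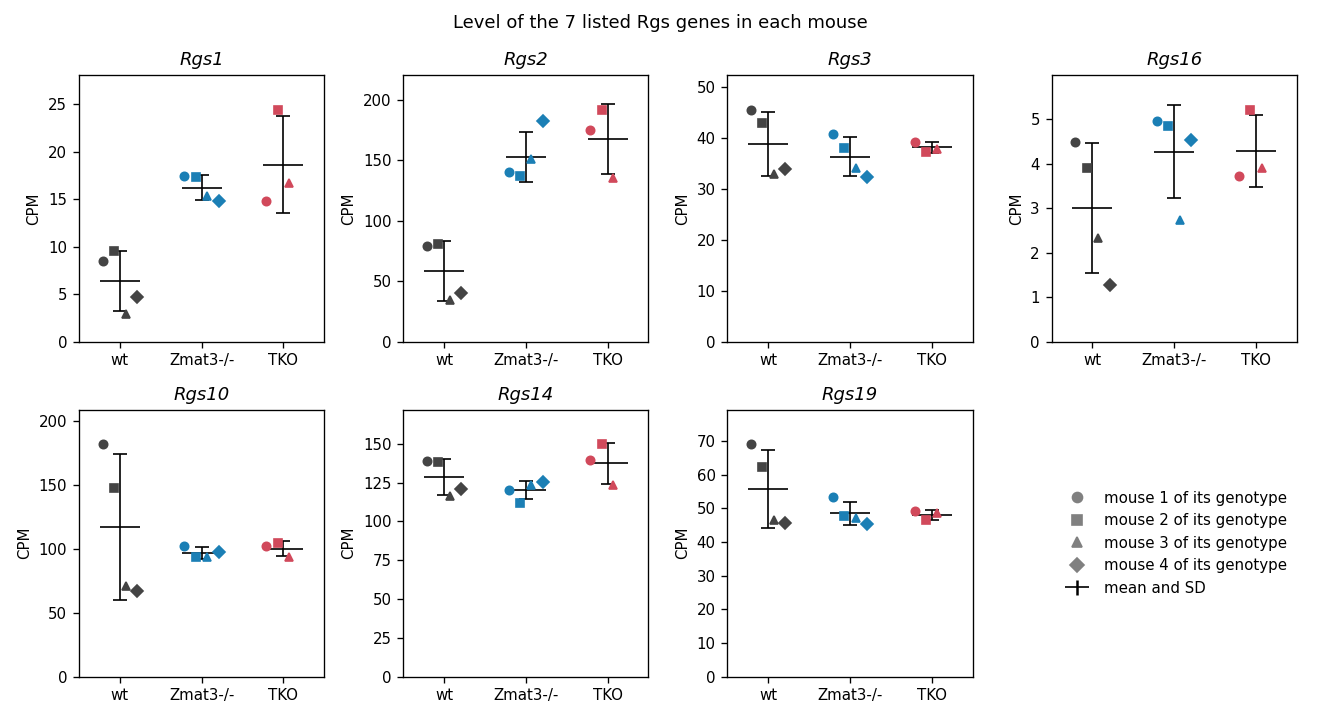
Level of each listed *Rgs* gene in CPM (vertical axes, from 0) in each of the 11 mice, by genotype (horizontal axes). Points are mice, with the shape giving the number within the genotype, and black bars give the mean and SD. All 7 mutant mice lie above all 4 wt mice for *Rgs1* and *Rgs2*, and wt mice 1 and 2 lie above wt mice 3 and 4 in each panel.

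*Rgs16*, an R4 member that acts on G alpha i and G alpha q, was the scarcest listed gene, with 32 to 323 counts per mouse. It was at 4.49, 3.91, 2.34 and 1.28 CPM in wt mice 1 to 4, at 4.97, 4.85, 2.73 and 4.53 CPM in Zmat3-/- mice 1 to 4, and at 3.72, 5.21 and 3.91 CPM in TKO mice 1 to 3. The wt mice 1 and 2 lay within the range of the mutants and wt mice 3 and 4 lay below all of them. The log2FC over wt was 0.51 for Zmat3-/- (standard error 0.384) and 0.50 for TKO mice (standard error 0.424), with 95% intervals of -0.37 to 1.38 and -0.48 to 1.49, which reach from a lower level than in wt to the difference fitted for *Rgs1* in Zmat3-/- mice.

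*Rgs3*, the longest of the listed genes and one that also has isoforms without the usual short R4 layout, was nearly level across genotypes. It was at 45.5, 42.8, 32.8 and 33.9 CPM in wt mice 1 to 4, at 40.8, 38.0, 34.1 and 32.2 CPM in Zmat3-/- mice 1 to 4, and at 39.2, 37.2 and 37.8 CPM in TKO mice 1 to 3. The TKO values lay inside the wt range and so did all Zmat3-/- values but that of mouse 4, which was the lowest of all. The 95% interval of the log2FC over wt was -0.40 to 0.22 for Zmat3-/- and -0.38 to 0.33 for TKO mice. Of the 31-base words in its transcripts, 12.5% also occur in other genes, most often in *Gm5763*, *Btbd9* and *Gm43813*, so reads there could be split between genes.

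In the R12 branch, *Rgs10* is a small protein with little beyond the RGS domain and is abundant in blood cells. It was at 181, 148, 70.9 and 67.1 CPM in wt mice 1 to 4, at 102, 93.4, 93.1 and 97.7 CPM in Zmat3-/- mice 1 to 4, and at 102, 104 and 93.5 CPM in TKO mice 1 to 3. All 7 mutant mice lay between the wt pairs, above wt mice 3 and 4 and below wt mice 1 and 2. Its SD was 56.9 CPM in wt, against 4.36 CPM in Zmat3-/- and 5.68 CPM in TKO mice. The log2FC over wt was -0.26 for Zmat3-/- (standard error 0.310) and -0.22 for TKO mice (standard error 0.361), and the sign depended on the wt mice. It was 0.49 and 0.53 with wt mice 1 and 2 left out and -0.76 and -0.71 with wt mice 3 and 4 left out.

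*Rgs14*, a scaffold that also binds Ras-family GTPases and GDP-bound G alpha i through its GoLoco motif, varied least over the 11 mice. It was at 139, 138, 116 and 121 CPM in wt mice 1 to 4, at 120.2, 112, 123 and 126 CPM in Zmat3-/- mice 1 to 4, and at 140, 150 and 124 CPM in TKO mice 1 to 3. The highest and the lowest of the 11 mice differed by 1.34-fold, and the genotypes overlapped. In *Rgs14*, 3.065% of the 31-base words are shared, in part with *Zmat3*, so reads there could be split between genes.

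*Rgs19*, also called GAIP and a regulator of G alpha i, was the only listed gene of the RZ branch. It was at 69.0, 62.1, 46.6 and 45.6 CPM in wt mice 1 to 4, at 53.5, 47.8, 47.2 and 45.4 CPM in Zmat3-/- mice 1 to 4, and at 49.3, 46.5 and 48.5 CPM in TKO mice 1 to 3. The wt mice 1 and 2 were the highest of all 11 mice, and wt mice 3 and 4 lay within or beside the mutant range. The 95% interval of the log2FC over wt was -0.53 to 0.14 for Zmat3-/- and -0.62 to 0.19 for TKO mice.

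Between the mutant genotypes, which differ by loss of *Puma* and *p21*, all 7 listed genes overlapped. The log2FC of TKO over Zmat3-/- mice ran from -0.020 for *Rgs19* to 0.19 for *Rgs14*. For *Rgs1* it was 0.18 (95% interval -0.18 to 0.54) and for *Rgs2* 0.13 (95% interval -0.17 to 0.42), so a level in TKO mice more than 0.54 above that in Zmat3-/- mice on the log2 scale lies outside both intervals. For *Rgs14* the interval was 0.0064 to 0.36, and 2 of the 3 TKO mice lay above all Zmat3-/- mice.

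**Figure D2:**
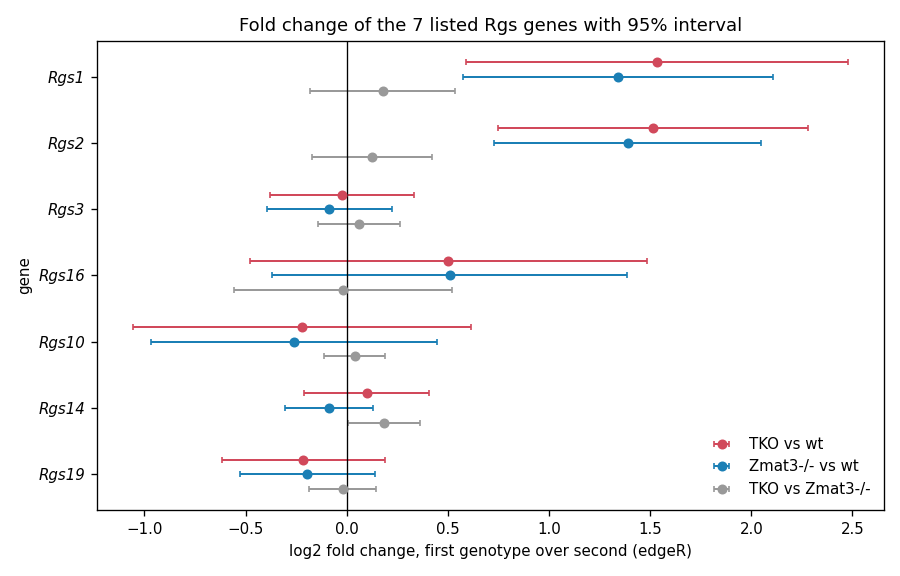
Log2 fold change of the 7 listed *Rgs* genes (horizontal axis) in the 3 comparisons of genotypes, fitted by edgeR. Points are estimates and bars their 95% intervals, and the vertical line marks no change. The estimates of *Rgs1* and *Rgs2* over wt lie between 1.34 and 1.53, and those of the other 5 genes over wt between -0.26 and 0.51.

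At an adjusted p-value under 0.05 in edgeR's quasi-likelihood test, 0 of the 7 listed genes passed in any comparison, where 0.294% of 13260 genes passed for TKO against wt, 0.763% of 13494 for Zmat3-/- against wt and 0.221% of 13124 for TKO against Zmat3-/- mice. With an absolute log2FC above 1.5 required as well, these shares were 0.241%, 0.319% and 0.122%. At an unadjusted p-value under 0.05, 2 of 7 passed for TKO against wt (10.3% of all genes), 2 of 7 for Zmat3-/- against wt (16.1%) and 1 of 7 for TKO against Zmat3-/- mice (4.5%). DESeq2 passed *Rgs1* and *Rgs2* in both comparisons with wt, where it passed 2.87% of all genes for TKO and 8.04% for Zmat3-/- mice, and passed 0 of 7 for TKO against Zmat3-/- mice, where it passed 0.556%. Every mutant mouse above every wt mouse, as for *Rgs1* and *Rgs2*, was found in 6.43% of genes for TKO and 7.01% for Zmat3-/- mice. For TKO against Zmat3-/- mice, 0 of 7 did not overlap, where 2.96% of genes were higher and 2.68% lower in every TKO mouse. Since the list was made with such values known, nothing is read from these counts. In bulk RNA, more cells that express a gene and more RNA of it per cell cannot be told apart.

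The difference of *Rgs1* and *Rgs2* from wt was present against each wt pair, in different sizes. Wt mice 1 and 2 exceeded wt mice 3 and 4 by 2.38-fold for *Rgs1*, 2.15-fold for *Rgs2*, 2.32-fold for *Rgs16* and 2.38-fold for *Rgs10*, against 1.17- to 1.42-fold for *Rgs3*, *Rgs14* and *Rgs19*. The same split of the Zmat3-/- mice gave 0.832- to 1.35-fold over the 7 genes. With wt mice 1 and 2 left out, the log2FC of *Rgs1* was 2.09 in Zmat3-/- and 2.28 in TKO mice, that of *Rgs2* was 2.03 and 2.17, and that of *Rgs16* was 1.24 and 1.23. With wt mice 3 and 4 left out, it was 0.85 and 1.04 for *Rgs1*, 0.93 and 1.07 for *Rgs2*, and 0.028 and 0.026 for *Rgs16*. The difference of *Rgs16* from wt was thus near 0 against wt mice 1 and 2. *Rgs3*, *Rgs14* and *Rgs19* were at 0.12, 0.019 and 0.075 in Zmat3-/- and 0.19, 0.21 and 0.061 in TKO mice without wt mice 1 and 2, and at -0.28, -0.20 and -0.43 and -0.21, -0.0045 and -0.44 without wt mice 3 and 4. Among mice with a high *Xist* level, *Rgs2* was higher by 0.79 on the log2 scale in 2 Zmat3-/- than in 2 wt mice, and among those with a low level it was higher by 2.15. Whether sex or another property of the wt pairs sets these sizes was not tested.

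Compared per kilobase of the main transcript, the listed genes ranked in wt mice from *Rgs10* down to *Rgs16*. The mean level was 133 CPM per kilobase for *Rgs10*, 54.6 for *Rgs14*, 36.9 for *Rgs19*, 19.4 for *Rgs2*, 9.97 for *Rgs3*, 1.67 for *Rgs1* and 1.28 for *Rgs16*. Neighbours in this order did not overlap in wt mice, apart from *Rgs2* with *Rgs3* (11.5 to 26.8 against 8.44 to 11.7) and *Rgs1* with *Rgs16* (0.753 to 2.48 against 0.549 to 1.92). In the mutants, *Rgs2* ranked above *Rgs19* and beside *Rgs14*. It was at 50.5 in Zmat3-/- and 55.5 in TKO mice, where *Rgs14* was at 51.1 and 58.4 with overlapping ranges and *Rgs19* at 32.1 and 31.8 with ranges apart from both. *Rgs1* did not overlap *Rgs16* in the mutants, with means of 4.22 and 4.85 CPM per kilobase against 1.82 and 1.83, and was still below *Rgs3*. Divided by the length of all exons instead, the wt order of *Rgs1* (0.923) and *Rgs16* (1.28) turned round, and *Rgs2* came above *Rgs14* in both mutants.

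**Figure D3:**
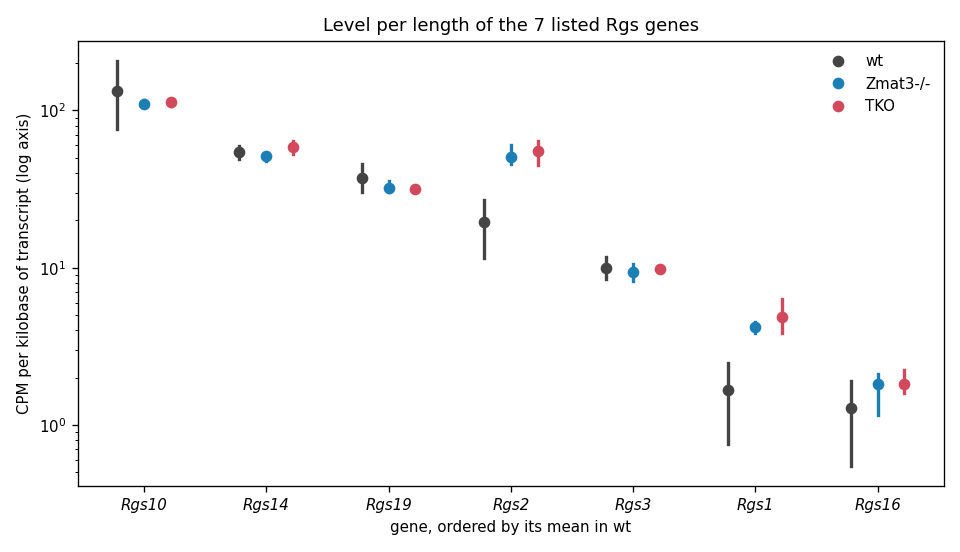
Level of the listed *Rgs* genes in CPM per kilobase of the main transcript (vertical axis, logarithmic) by genotype. Points are means, and lines run from the lowest to the highest mouse of 4 wt, 4 Zmat3-/- and 3 TKO mice. *Rgs2* lies at 19.4 in wt and at 50.5 and 55.5 in Zmat3-/- and TKO mice, beside *Rgs14*.

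Of the 17 other genes whose names begin with *Rgs*, 4 had counts enough to test for TKO against wt and 5 in each of the other comparisons, and 0 passed at an adjusted p-value under 0.05 in edgeR, 0 at an unadjusted one and 0 in DESeq2. *Rgs12*, a large R12 protein, had the highest level among them, with 42.8 ± 9.26 CPM in wt (SD, n = 4), 45.5 ± 1.99 CPM in Zmat3-/- (SD, n = 4) and 43.7 ± 8.93 CPM in TKO mice (SD, n = 3). *Rgs5*, which is typical of pericytes, was at 2.89 ± 1.63 CPM in wt and 5.23 ± 1.03 CPM in Zmat3-/- mice (SD, n = 4 each), with a log2FC of 0.86 (standard error 0.431). In TKO mice it was at 3.90 ± 2.04 CPM (SD, n = 3), with a log2FC over wt of 0.42 (standard error 0.603). *Rgs11* and *Rgs18*, the latter an R4 gene of platelets beyond *Rgs21* on chromosome 1, were at 1.14 to 3.85 CPM and 1.07 to 1.80 CPM over the 11 mice. *Rgsl1*, which was tested in the comparisons with Zmat3-/- mice, had a log2FC of 0.65 in Zmat3-/- over wt (standard error 0.327) and -0.54 in TKO over Zmat3-/- mice (standard error 0.300). Its mean was 1.00 CPM in wt, 1.56 CPM in Zmat3-/- and 1.05 CPM in TKO mice. *Rgs4* reached at most 1.06 CPM, and *Rgs6*, *Rgs7*, *Rgs8*, *Rgs9*, *Rgs13*, *Rgs17*, *Rgs20*, *Rgs21*, *Rgs22*, *Rgs7bp* and *Rgs9bp* stayed below that. *Rgs13* and *Rgs21*, which flank *Rgs1*, therefore had too few counts to follow it.

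The nearest tested genes around *Rgs1* and *Rgs2* were also read, a choice made after their values were seen. Within 500 kb of either gene, *Cdc73*, *Glrx2*, *Trove2* and *Uchl5* had log2FC between -0.37 and 0.38 in the comparisons with wt, with *Glrx2* lowest and *Cdc73* highest, and none passed at an adjusted p-value under 0.05 in edgeR.

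The genes whose profile over the 11 mice was most like that of a listed gene were sought for *Rgs1*, *Rgs2* and *Rgs16*, the listed genes whose log2 CPM had an SD above 0.5. Likeness was the root mean square difference of log2 CPM, each gene centred on its own mean, among 12956 genes. The nearest to *Rgs1* was *Rgs2* at 0.241, followed by *Nfil3* and *Ccno* at 0.320 and 0.343, where the median gene was at 0.916. Among the 3 nearest to *Rgs2* were *Bambi* at 0.226 and *Rgs1* at 0.241, with a median of 0.870. For *Rgs16* they were *Spsb2*, *Hes1* and *Cryz* at 0.236 to 0.269, with a median of 0.623.

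The proteins that RGS proteins act between were read from 4 lists of 81 genes, of which 68 were tested in each comparison. For Zmat3-/- against wt mice 1 of 68 passed at an adjusted p-value under 0.05 in edgeR, a receptor that was lower, where 0.363% of all genes passed as lower. *Cxcr4*, the receptor of the chemokine CXCL12 that couples to G alpha i and holds thymocytes in place, was at 235, 227, 295 and 310 CPM in wt mice 1 to 4, at 119, 127, 142 and 147 CPM in Zmat3-/- mice 1 to 4, and at 114, 145 and 152 CPM in TKO mice 1 to 3. All mutant mice lay below all wt mice, as did 7.49% of genes for TKO and 7.21% for Zmat3-/- mice. Its log2FC over wt was -0.99 in Zmat3-/- mice (standard error 0.141, edgeR adjusted p = 0.0248) and -0.96 in TKO mice (standard error 0.179, edgeR adjusted p = 0.128). Without wt mice 1 and 2 these were -1.18 and -1.14, and without wt mice 3 and 4 they were -0.79 and -0.75.

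Between the mutant genotypes *Cxcr4* had a log2FC of 0.026. Its call against wt was lost in 6 of the 8 fits that each left out 1 mouse, with no change of direction. The call was also lost with a block on replicate number, again without a change of direction. Of the 24 receptors listed 23 were tested, and the next largest difference from wt was that of *Ptger1*, a prostaglandin E receptor, with a log2FC of 0.76 in Zmat3-/- (standard error 0.399, edgeR adjusted p = 0.387) and 0.66 in TKO mice (standard error 0.435, edgeR adjusted p = 0.610). *Ptger1* was at 4.73, 8.17, 18.1 and 16.5 CPM in wt mice 1 to 4 and 15.6 to 24.4 CPM in the mutants.

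For TKO against wt, 0 of the 68 pathway genes passed in edgeR, with 7 at an unadjusted p-value under 0.05 (10.3% of all genes) and 1 in DESeq2, *Cxcr4* (2.87% of all genes). For Zmat3-/- against wt, 11 had an unadjusted p-value under 0.05 (16.1% of all genes) and 5 passed in DESeq2 (8.04%). These 5 were *Cxcr4*, *Gnai3*, *Gng12*, *Gpr183* and *S1pr4*. For TKO against Zmat3-/- mice, 0 passed in edgeR, with 4 at an unadjusted p-value under 0.05 (4.5% of all genes) and 0 in DESeq2 (0.556%). The median log2FC of the 68 genes was -0.0099 for Zmat3-/- and 0.016 for TKO against wt and 0.027 for TKO against Zmat3-/- mice, beside medians of -0.026, -0.037 and -0.0083 over all genes tested. Among the G alpha subunits, on which RGS proteins act, 9 of 13 were tested and 0 passed in edgeR in any comparison, with 2, 3 and 0 at an unadjusted p-value under 0.05 for TKO against wt, Zmat3-/- against wt and TKO against Zmat3-/- mice, where 10.3%, 16.1% and 4.5% of all genes were. The largest difference from wt was that of *Gna13*, of the G12 class, with a log2FC of 0.57 in Zmat3-/- (standard error 0.201) and 0.65 in TKO mice (standard error 0.239). It was followed by *Gna12*, its close relative, at 0.45 in Zmat3-/- and 0.38 in TKO mice. *Gnai3*, a G alpha i subunit and so a direct substrate of most R4 proteins, was at 0.45 in Zmat3-/- and 0.43 in TKO mice. In wt mice 1 to 4, *Gna13* was at 114, 129, 207 and 196 CPM, against 223 to 286 CPM in the mutants. *Gna12* was at 36.5, 41.5, 24.8 and 25.6 CPM, against 36.9 to 48.8 CPM.

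Of the G beta and gamma subunits 9 of 16 were tested, and *Gng12* and *Gngt2* differed most from wt. The log2FC of *Gng12* was 0.46 in Zmat3-/- and 0.42 in TKO mice, and that of *Gngt2* was -0.42 and -0.54. *Gngt2* was at 67.8, 61.5, 29.2 and 28.9 CPM in wt mice 1 to 4 and 25.4 to 39.2 CPM in the mutants. Of the effectors and other regulators 27 of 28 were tested, and 0 had an unadjusted p-value under 0.05 against wt, where 10.3% of all genes did for TKO and 16.1% for Zmat3-/- mice. The largest differences there were those of *Arrb2*, a beta-arrestin, at -0.41 and of *Adcy9*, an adenylate cyclase, at 0.37 in Zmat3-/- mice, and those of *Adcy9* at 0.54 and *Pde4d*, a cyclic AMP phosphodiesterase, at 0.46 in TKO mice. Between TKO and Zmat3-/- mice the largest differences among receptors were 0.54 for the chemokine receptor *Ccr8* and 0.31 for the thrombin receptor *F2r*. Among effectors and other regulators they were 0.22 for the phospholipase *Plcb4* and 0.20 for the adenylate cyclase *Adcy6*, and they were below 0.17 in size for the G-protein subunits, where *Gnal* was at -0.16, *Gnas* at 0.077, *Gngt2* at -0.12 and *Gnb4* at -0.082.

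**Figure D4:**
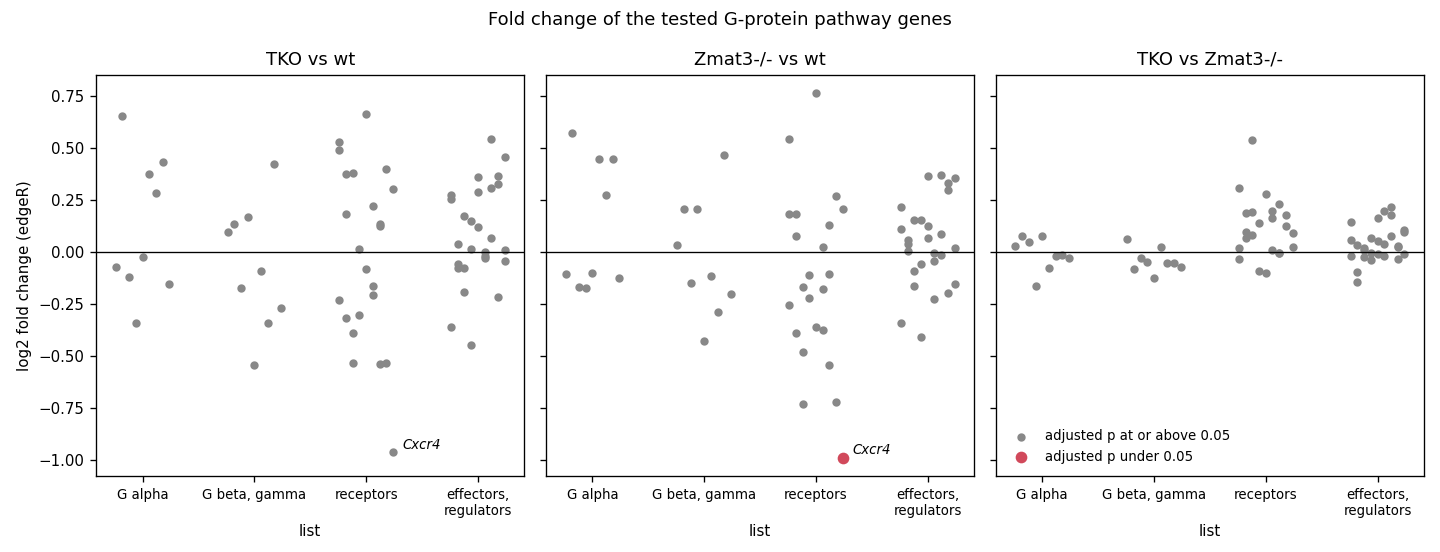
Log2 fold change (vertical axis, edgeR) of the tested G-protein pathway genes in the 3 comparisons, by list. Each point is a gene, and a larger coloured point passed an adjusted p-value of 0.05. *Cxcr4*, at -0.99 in Zmat3-/- against wt mice, is the only one that passed.

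Early-response genes are switched on within minutes of a stimulus or of handling. Of 25 such genes, 6 passed in edgeR as higher and 0 as lower in each comparison with wt, and 0 in either direction for TKO against Zmat3-/- mice. Of all genes, 0.249% passed as higher and 0.0452% as lower for TKO against wt, 0.4% and 0.363% for Zmat3-/- against wt, and 0.145% and 0.0762% for TKO against Zmat3-/- mice. Since this list too was chosen with earlier results of these data known, nothing is read from these counts. The median log2FC of the 25 genes was 0.54 in Zmat3-/- and 0.59 in TKO mice over wt, and 19 of the 25 were above 0 in each. The other 6, *Egr1*, *Egr2*, *Egr3*, *Btg2*, *Myc* and *Nfkbia*, were below 0 in both, from -0.050 for *Nfkbia* to -0.61 for *Myc* in Zmat3-/- and from -0.017 for *Nfkbia* to -0.67 for *Egr2* in TKO mice. Their summed level was 2094, 1954, 1303 and 1320 CPM in wt mice 1 to 4, 2954, 3034, 2526 and 3033 CPM in Zmat3-/- mice 1 to 4 and 3013, 2653 and 2707 CPM in TKO mice 1 to 3. Every mutant mouse lay above every wt mouse, and wt mice 1 and 2 lay above wt mice 3 and 4, as for *Rgs1* and *Rgs2*. *Rgs10* ordered the wt mice in the same way, but its mutant values lay below those of wt mice 1 and 2. Their part in the levels of *Rgs1* and *Rgs2* was not tested.

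**Figure D5:**
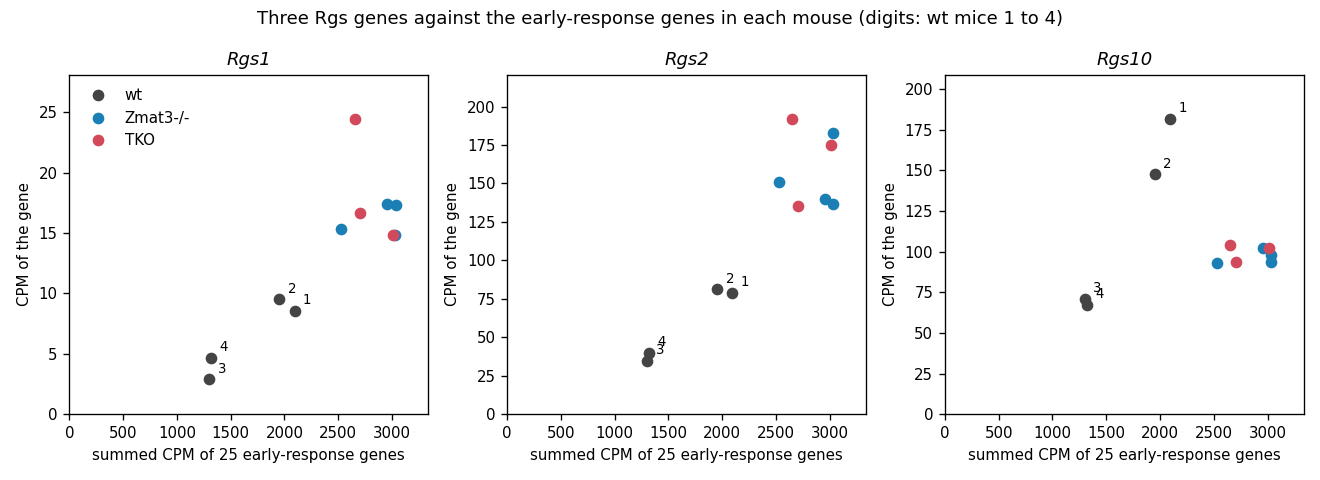
Level of *Rgs1*, *Rgs2* and *Rgs10* in CPM (vertical axes) against the summed CPM of 25 early-response genes (horizontal axes) in each of the 11 mice. Digits give the number of each wt mouse. For *Rgs1* and *Rgs2* the mutants lie above wt on both axes, while for *Rgs10* they lie between the wt pairs on the vertical axis and above wt on the horizontal axis.

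Other cells of the thymus express some of these genes, *Rgs1* in B cells and regulatory T cells and *Rgs2* in myeloid cells among them. No gene of the lists for mature thymocytes, regulatory T cells, B cells, myeloid cells, platelets, red cells or stroma passed in any comparison in edgeR, and none was at 0 in every mouse. The 10 B cell markers summed to 766, 876, 518 and 523 CPM in wt mice 1 to 4, 500 to 535 CPM in Zmat3-/- and 491 to 564 CPM in TKO mice. The 12 myeloid markers summed to 480, 511, 296 and 295 CPM in wt mice 1 to 4, 380 to 512 CPM in Zmat3-/- and 252 to 562 CPM in TKO mice. The 12 stroma markers summed to 269, 249, 166 and 183 CPM in wt mice 1 to 4, 203 to 224 CPM in Zmat3-/- and 176 to 214 CPM in TKO mice. In these 3 lists wt mice 1 and 2 lay above wt mice 3 and 4, as they did for *Rgs1* and *Rgs2*, while the mutants overlapped wt. The 6 regulatory T cell markers summed to 186 to 234 CPM in wt, 219 to 235 CPM in Zmat3-/- and 203 to 209 CPM in TKO mice, and the 6 markers of mature thymocytes to 471 to 554, 417 to 475 and 428 to 473 CPM. The 7 red cell markers summed to 883 to 8772, 1168 to 5798 and 2751 to 3765 CPM, and the 6 platelet markers to 35.2 to 41.8, 31.4 to 35.1 and 31.7 to 38.1 CPM. The platelet sums of Zmat3-/- mice thus lay just below those of wt, and the other mutant sums overlapped wt. Wt mice 1 and 2 also lay above wt mice 3 and 4 in the mature thymocyte and platelet sums. They lay below them in the regulatory T cell and red cell sums and in that of the 12 thymocyte markers. Between the mutants, the regulatory T cell sums of all TKO mice lay below those of all Zmat3-/- mice. For Zmat3-/- against wt, 5 of the 12 tested myeloid markers had a log2FC above 0 and 7 below, from -0.34 to 0.70, and 7 of the 10 tested stroma markers were above and 3 below, from -0.53 for *Epcam* to 1.30 for *Col3a1*. For TKO against wt, 6 of the 11 tested myeloid markers were above 0 and 5 below, from -0.50 to 0.69, and 6 of the 11 tested stroma markers were above and 5 below, from -0.36 to 1.09. Of the 12 thymocyte markers 3 were above 0 and 9 below in each of these comparisons. Of the 6 markers of mature thymocytes 1 was above 0 and 5 below in each, with a median log2FC of -0.27 for Zmat3-/- and -0.28 for TKO mice. Where 16.1% of all genes had an unadjusted p-value under 0.05 for Zmat3-/- against wt, 2 of 12 thymocyte, 2 of 12 myeloid, 3 of 10 stroma, 3 of 6 mature thymocyte, 1 of 6 regulatory T cell, 1 of 4 platelet, 0 of 10 B cell and 0 of 5 red cell markers did. For TKO against wt, where 10.3% of all genes did, it was 1 thymocyte, 1 myeloid, 1 regulatory T cell and 1 platelet marker and 0 of the other lists. The part of these cells in the levels of *Rgs1* and *Rgs2* was not tested.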

How the data were processed

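RNA-seq of thymocytes of 4 wt, 4 Zmat3-/- and 3 TKO mice was used, grouped by the genotype in the sample labels. The authors quantified the reads with Salmon in nf-core/rnaseq against GRCm38.p6 with GENCODE annotation and deposited estimated counts per gene, without normalization. All values are whole numbers. Of 54418 genes, 54166 matched GENCODE M21, which gave names, positions and lengths. The TruSeq RNA kit named in the labels does not mark strand.

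Genotypes were compared pairwise over all genes with edgeR 4.0.16 (R 4.3.3, limma 3.58.1), using TMM factors and the two-sided quasi-likelihood test with Benjamini-Hochberg adjustment. The study's filter on low counts was read as 20 counts, after scaling to the smallest library, in at least the number of mice of the smaller genotype. As in the study, *Xist*, Y-linked, ribosomal RNA and immunoglobulin non-coding genes were removed, while its filter on obsolete Entrez identifiers was not applied. Calls used an adjusted p under 0.05, or this with an absolute log2FC above 1.5. The standard error is the absolute log2FC over the square root of F, and 95% intervals use the t distribution with the degrees of freedom of the fit. Log2 CPM used a prior count of 2. At 3 counts a library could show 0.0363 to 0.176 CPM, counting error only.

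The *Rgs* list and the other gene lists were chosen with earlier results of these data known. Text names all *Rgs* genes, from each pathway list the genes that passed and otherwise up to 2 with the largest difference, and the 3 profiles most alike. 1 gene to which these rules applied is not reported here and is left out of the list counts. The study used DESeq2 with sex and surrogate variables. The labels give no sex, so these were alternatives (DESeq2 1.42.0, sva 3.50.0, *Xist* level), with RLE factors, no filter, all classes kept, a joint fit of all genotypes, a block on replicate number and each mouse left out. Leaving out each wt pair was added after seeing the data. Scripts were tested on simulated data. Promoters came from RefSeq.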

Additional observations from a re-analysis of the deposited data

Results flagged for a closer look

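The difference of *Rgs10* between Zmat3-/- and wt mice went in opposite directions in mice of high and of low *Xist* level. Among the 2 Zmat3-/- and 2 wt mice with high *Xist*, both Zmat3-/- mice were below both wt mice, by a mean log2 difference of -0.74, and among the 2 and 2 mice with low *Xist* both were above, by 0.47. *Rgs14* did the same at a smaller size, with -0.26 and 0.068. The difference between the sets of mice was not tested, and the share of all genes that behaved so was not counted. Between the wt pairs, 47.5% of 13522 genes differed by more than 1.5-fold, against 5.42% for the same split of the Zmat3-/- mice. The labels give no sex. The *Xist* sets coincide with the pairs into which the wt mice fall, so among wt mice a property of the pairs and the *Xist* level cannot be told apart. With high *Xist*, *Rgs10* was at 181 and 148 CPM in wt and 102 and 93.4 CPM in Zmat3-/- mice. With low *Xist* it was at 70.9 and 67.1 CPM in wt and 93.1 and 97.7 CPM in Zmat3-/- mice.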

How the results depend on the processing

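Of 350 recomputed log2FC values of the 7 listed genes, 333 moved by less than the spread between mice and 17 by more, all 17 with a wt pair left out. *Rgs1* kept its sign against wt throughout, from 1.04 to 2.28 in TKO and from 0.85 to 2.09 in Zmat3-/- mice, as did *Rgs2*, from 1.07 to 2.17 and from 0.93 to 2.03, while *Rgs3*, *Rgs10*, *Rgs14* and *Rgs19* took either sign against wt. The number of listed genes that passed at an adjusted p under 0.05 was 0 with each single mouse left out. For TKO and for Zmat3-/- against wt it was 2 and 2 with DESeq2, 1 and 1 with all genotypes in one fit (*Rgs2*), 2 and 3 with 1 surrogate variable, 3 and 4 without wt mice 1 and 2, and 4 and 6 without wt mice 3 and 4, and for TKO it was 1 with no filter (*Rgs2*). Nothing is read from these counts of listed genes, since those over all genes rose in the same fits. Over all genes, those that passed and those that passed with an absolute log2FC above 1.5 depended much on the fit. For TKO against wt they were 39 and 32, against 381 and 103 with DESeq2, 61 and 51 with no filter, 219 and 70 with all genotypes in one fit, 2378 and 176 with 1 surrogate variable, 1098 and 244 without wt mice 1 and 2, and 5829 and 672 without wt mice 3 and 4, and ranged from 16 to 42 and 15 to 35 with 1 mouse left out, under 20 without any of the 3 TKO mice. For Zmat3-/- against wt they were 103 and 43, against 1085 and 123 with DESeq2, 234 and 71 with all genotypes in one fit, 5102 and 215 with 1 surrogate variable, 4649 and 441 without wt mice 1 and 2, and 7968 and 733 without wt mice 3 and 4, and ranged from 17 to 105 and 12 to 47 with 1 mouse left out, with 46 or fewer passing without wt mouse 2, 3 or 4 or any of the 4 Zmat3-/- mice. Those that passed were 55 with no filter and 165 with the *Xist* level. For TKO against Zmat3-/- mice they were 29 and 16, against 90 and 45 with no filter, with 73 passing in DESeq2 and 16 with all genotypes in one fit, and ranged from 20 to 34 and 14 to 18 with 1 mouse left out. G-protein pathway genes that passed against wt were 0 for TKO and 1 for Zmat3-/- mice, but 1 and 5 with DESeq2, 1 and 2 with all genotypes in one fit or the *Xist* level, 17 and 28 with 1 surrogate variable, 4 and 23 without wt mice 1 and 2, 35 and 42 without wt mice 3 and 4, and 2 for Zmat3-/- mice with all gene classes kept. For Zmat3-/- mice they ranged from 0 to 1 with 1 mouse left out, at 0 without wt mouse 3 or 4 or any Zmat3-/- mouse. Nothing is read from these counts of pathway genes either, since those over all genes differed between fits as well. *Cxcr4* kept its direction against wt in every alternative. Between the mutants its log2FC changed sign, to -0.023 with 1 surrogate variable, to -0.017 with the *Xist* level and to between -0.043 and -0.0033 without Zmat3-/- mouse 1 or TKO mouse 2 or 3. With 1 mouse left out, it ranged from -0.043 to 0.14. Of the other *Rgs* genes, 1 passed for Zmat3-/- against wt with 1 surrogate variable (*Rgs5*), 1 without wt mice 1 and 2 (*Rgs5*) and 1 without wt mice 3 and 4 (*Rgs12*). The cause of these changes was not tested.

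The replicate numbers were not treated as pairs, since the correlation of same-numbered mice in their deviations from the genotype means was 0.070 to 0.386 for TKO with wt, 0.086 to 0.323 for Zmat3-/- with wt and -0.0029 to 0.165 for TKO with Zmat3-/- mice, not always over 0.1. With the replicate block, 16 genes passed for TKO against wt and 16 with the fold threshold, 12 and 8 for Zmat3-/- against wt and 21 and 16 for TKO against Zmat3-/- mice, with 0 pathway genes for Zmat3-/- against wt. Not every mouse correlated best with its own number.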
